A study of Mus musculus with 2 samples.

Results

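Members of the Krüppel-like factor (KLF) and early growth response (EGR) families were examined in an ATAC-seq comparison of TGF-β-treated cardiac fibroblasts with and without Piezo2 knockdown. The genes were Klf2, Klf4, Klf5, Klf6, Klf9, Klf10, Klf15, Egr1, Egr2 and Egr3, taken as every peak whose assigned gene symbol in the deposited table was 1 of the 10. They held 17 of the 63316 peaks in the table and were 10 of the 16934 genes with an assigned peak. The 7 KLF genes had 12 peaks and the 3 EGR genes had 5. ATAC-seq inserts sequencing adapters into open DNA with a transposase, so that the read density at a site follows how open the chromatin is there. Both libraries were labelled as primary murine cardiac fibroblasts from the heart treated with TGF-β, and the study's legend gives 5 ng/ml for 24 h. The control library, labelled only NC, was taken as the scrambled siRNA arm of the study's legend and is called SCR here, and the other library received siRNA against Piezo2, siPiezo2. Piezo2 is a mechanically activated cation channel. The study kept its mice on the C57BL/6 J background, and the genotype, age and number of the animals behind these cultures were not given in the sources used here, and the knockdown itself cannot be read from accessibility.

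There was 1 library per condition. No difference below therefore has a replicate check, and the 95% intervals, exact binomial (Clopper-Pearson) on the reads of the SCR and siPiezo2 windows, cover counting error only. The windows around the peaks held 4615335 reads in SCR and 2754046 reads in siPiezo2, with medians of 58 and 36 reads per window of 2000 bp. Densities are reads per 1000 bp of that window after the authors' scaling of the libraries to each other, so they can be set side by side between windows. A ratio is log2 of siPiezo2 over SCR with 1 added to each density, and a call means past 1.5-fold. The sources conflict: the design text of the series is about a Tet3 knockout with Cre, and the study's ATAC-seq protocol starts from minced tissue with a different library kit, although its list of reagents holds the kit that the labels name. The sample labels were followed. Because whole cultures were profiled, fewer cells with an open site and a less open site in every cell cannot be told apart.

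KLF proteins carry C-terminal zinc fingers that bind GC-rich and CACCC sequences, and EGR proteins carry zinc fingers that bind a GC-rich element of the form GCGNGGGCG. EGR1, EGR2 and EGR3 are immediate early factors, induced within minutes by growth factors or stretch through ERK signalling and the serum response factor SRF acting at CArG boxes. KLF2 and KLF4 are known for their induction by laminar flow through ERK5 and MEF2. KLF10 was first named for its induction by TGF-β, KLF5 and KLF6 are linked to cell growth and wound responses, and KLF9 and KLF15 are targets of the glucocorticoid receptor. In the heart, KLF5 and EGR1 have been tied to fibrosis and KLF15 to restraint of it.

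The sequences upstream of the transcript starts are shown for Egr2, the member gene with the largest difference in accessibility, for Klf15, which held the peak with the largest gain, and for Klf2 and Klf9 as genes whose summed density was lower. By distance from the start, the gained Klf15 peak lay at +899 to +1292, outside the stretch shown. The Klf15 promoter peak, at −403 to +12, covered that stretch and had a ratio of −0.033. The assigned Klf9 peaks lay at +1555 to +1799 and +10446 to +10695, also outside the stretch shown. The peak at the Klf9 start, assigned to Gm56648, was higher in siPiezo2, at 0.32. The sequences are 250 bases 5′ of a start, from RefSeq on GRCm38.p6, plus strand, in lower case with the matches to the motifs searched in capitals.
Egr2, chr10:67537619-67537868: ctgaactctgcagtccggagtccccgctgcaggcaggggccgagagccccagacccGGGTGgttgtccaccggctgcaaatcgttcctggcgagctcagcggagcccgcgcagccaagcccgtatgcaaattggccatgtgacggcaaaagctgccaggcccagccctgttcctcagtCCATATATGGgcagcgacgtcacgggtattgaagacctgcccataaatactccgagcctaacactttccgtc
Egr2, upstream start, chr10:67537316-67537565: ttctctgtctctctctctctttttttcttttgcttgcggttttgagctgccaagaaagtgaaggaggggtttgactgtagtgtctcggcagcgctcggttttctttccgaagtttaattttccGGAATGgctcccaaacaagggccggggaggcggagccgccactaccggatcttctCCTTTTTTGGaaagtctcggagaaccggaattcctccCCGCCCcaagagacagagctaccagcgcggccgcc
Klf15, chr6:90462326-90462575: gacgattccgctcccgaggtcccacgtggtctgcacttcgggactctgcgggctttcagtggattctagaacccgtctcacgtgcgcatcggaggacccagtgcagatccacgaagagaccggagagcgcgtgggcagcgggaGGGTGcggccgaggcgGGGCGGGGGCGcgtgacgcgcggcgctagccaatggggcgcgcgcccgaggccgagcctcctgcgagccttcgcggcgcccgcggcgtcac
Klf2, chr8:72318812-72319061: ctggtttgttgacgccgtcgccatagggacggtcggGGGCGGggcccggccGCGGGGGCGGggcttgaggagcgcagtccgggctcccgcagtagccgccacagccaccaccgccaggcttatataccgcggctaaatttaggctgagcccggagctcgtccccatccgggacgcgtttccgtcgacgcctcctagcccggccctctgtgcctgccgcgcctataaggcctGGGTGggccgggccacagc
Klf9, chr19:23140976-23141225: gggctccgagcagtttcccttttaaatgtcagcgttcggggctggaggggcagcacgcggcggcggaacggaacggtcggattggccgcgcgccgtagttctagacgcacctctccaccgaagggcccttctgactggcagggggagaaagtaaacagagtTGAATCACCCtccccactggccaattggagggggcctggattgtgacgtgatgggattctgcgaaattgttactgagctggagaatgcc

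RefSeq windows of 300 bases, 250 before and 50 after a start, were found for 6 of the 10 genes: Klf2, Klf4, Klf6, Klf9, Klf15 and Egr2, the last with 5 windows. The other genes are Klf5, Klf10, Egr1 and Egr3. Both strands were searched for 8 motifs, and the share of all 32851 windows with a match is given beside each. The CArG box, the SRF element, matched in 1.63% of all windows and among the 6 genes in Egr2 alone. One Egr2 match, ccatatatgg, lay at −72 to −63 from the main transcript start, and a second one, ccttttttgg, lay at −375 to −366. By distance from the start of the same transcript, the Egr2 promoter peak described below spanned −202 to +95 and so covered the first match and not the second. GGAATG, the TEAD core, matched in 14.7% of windows and among the 6 genes in Egr2. TGANTCA, the AP-1 element, matched in 7.81% of windows and in Klf9, where it overlapped a CACCC match. GCGNGGGCG, the EGR element, matched in 5.55% of windows and in Klf2, Klf4 and Klf15, overlapping a GGGCGG match in each. GGGCGG, the GC box, matched in 35.7% of windows and in Klf2, Klf4, Klf6, Klf15 and Egr2. CACCC matched in 57.5% of windows and in Klf2, Klf9, Klf15 and Egr2. TGACGTCA, the cAMP element (1.79% of windows), and CAGACA, the SMAD element (21.0%), matched in none of the 6. The GC content was 69.3% for the Klf2 window, 73.3% for Klf15, 63.3% for Klf9 and 60.0% for the main Egr2 window, against a median of 52.7% over all windows. Egr2, with 5 windows, had more room to match than a gene with 1 window. Counted by gene over all genes with a window, the shares were 1.81% for the CArG box, 16.6% for GGAATG, 8.97% for TGANTCA and 6.27% for GCGNGGGCG. They were 38.2% for GGGCGG, 59.8% for CACCC, 2.03% for TGACGTCA and 23.6% for CAGACA. A match is a stretch of letters and not an occupied site. The deposited peak coordinates follow GRCm39, so no coordinate was carried from one build to the other.

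Among the EGR genes, Egr2 was less accessible in siPiezo2 at both of its peaks, whereas Egr1 and Egr3 lay close to equal density. Egr2 (ENSMUSG00000037868, chromosome 10, transcript 67373699 to 67378018, plus strand), a factor of hindbrain and myelinating Schwann cell development, summed to 92.0 over its peaks in SCR and to 58.3 in siPiezo2, from 229 and 91 reads. The log2 ratio was −0.65 (95% interval −1.02 to −0.29), so that density decreased by 36.6%, and Egr2 was the only 1 of the 10 genes past 1.5-fold. Under the 4 other scalings of the libraries its ratio was −0.58 to −0.51, lower but short of 1.5-fold. Over all genes with a peak, 6.6% were lower past 1.5-fold, and 1.54% were higher. None of the 10 genes was higher past it. The Egr2 promoter peak, at 67373497 to 67373794, had 48.9 in SCR and 28.9 in siPiezo2, from 122 and 45 reads, with a ratio of −0.74 (−1.26 to −0.23). It was the only 1 of the 17 peaks that was lower past 1.5-fold, against 14.2% of all peaks. The other Egr2 peak, at 67371931 to 67372223 in intron 2 of an upstream transcript, had 43.1 and 29.4, from 107 and 46 reads, with a ratio of −0.54 (−1.07 to −0.026). The windows of these 2 peaks share 432 bp, so that reads in that stretch count in both, the peaks are not separate measurements and the gene interval is too narrow. The same holds for the gene intervals of Egr1 (1465 bp shared), Klf15 (709 bp) and Klf6 (26 bp). Both peaks were called in the SCR library only.

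Egr1 (ENSMUSG00000038418, chromosome 18, transcript 34992876 to 34998037, plus strand), the family's most studied member and an early response to growth factors, had the most accessible peaks of all the KLF and EGR genes. Its peak at 34993412 to 34993964, annotated to the 5′ UTR, had 105 in SCR and 106 in siPiezo2, from 288 and 153 reads, and stood at percentile 99.6 of density over all peaks. The second, at 34994083 to 34994364 and with an overlapping window, had 97.6 and 91.3, from 265 and 133 reads. The ratios were 0.012 (−0.28 to 0.30) and −0.096 (−0.41 to 0.21), and that of the gene was −0.039 (−0.25 to 0.17). Densities at Egr1 differed by less than counting error. Egr3 (ENSMUSG00000033730, chromosome 14, transcript 70314652 to 70317404, plus strand), a factor of muscle spindle development, had 1 peak at 70314148 to 70314482 in its promoter. Its density was 31.5 in SCR and 30.3 in siPiezo2, from 77 and 48 reads, with a ratio of −0.057 (−0.61 to 0.48).

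**Figure D1:**
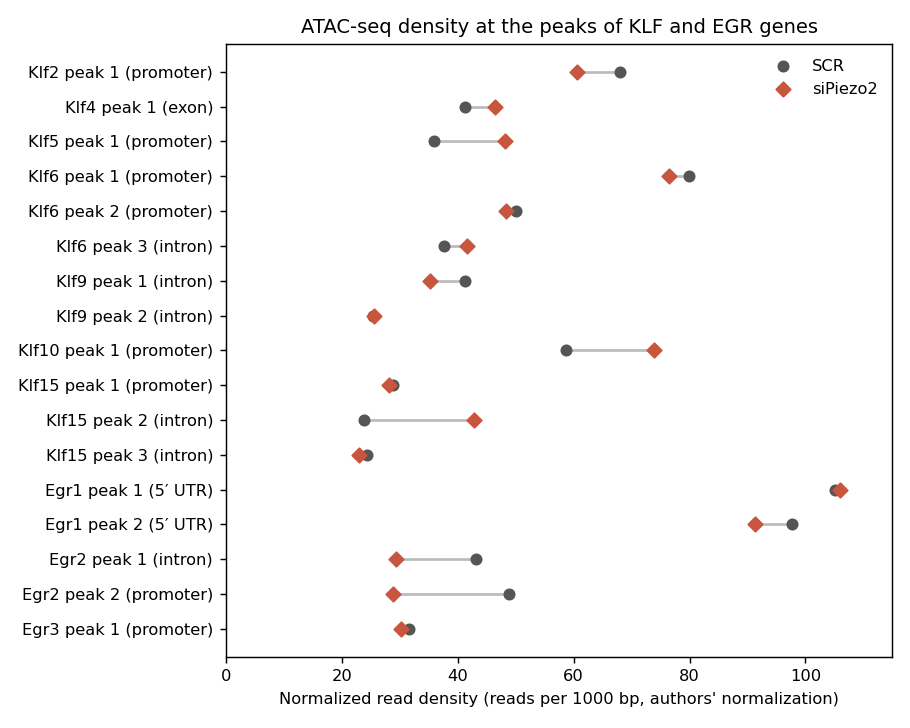
Scaled ATAC-seq density (reads per 1000 bp) of each of the 17 peaks in the SCR and siPiezo2 libraries, 1 library per condition. Both Egr2 peaks are lower in siPiezo2 (43.1 to 29.4 and 48.9 to 28.9), the middle Klf15 peak is higher (23.8 to 42.8), and the Egr1 peaks are the densest.

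The flow-responsive pair Klf2 and Klf4 had opposite signs, each within counting error. Klf2 (ENSMUSG00000055148, chromosome 8, transcript 73072877 to 73075500, plus strand), which holds endothelial and T cells in a resting state, had a promoter peak at 73072543 to 73073175 with 67.9 in SCR and 60.6 in siPiezo2, from 178 and 91 reads. The ratio was −0.16 (−0.54 to 0.21). Klf4 (ENSMUSG00000003032, chromosome 4, transcript 55530603 to 55531770, minus strand), one of the factors used to reprogram cells to pluripotency, had 1 assigned peak at 55530279 to 55530534, in an exon. Its density was 41.2 in SCR and 46.5 in siPiezo2, from 104 and 72 reads, with a ratio of 0.17 (−0.28 to 0.62). RefSeq places the Klf4 start 705 bases upstream of the transcript used in the table. Both peaks were called in both libraries.

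The growth and TGF-β-responsive members Klf5 and Klf10 were the highest of the 10 genes by ratio, and their intervals reached just below 0. Klf5 (ENSMUSG00000005148, chromosome 14, transcript 99536127 to 99552472, plus strand), which promotes proliferation of smooth muscle and epithelial cells, had a promoter peak at 99535826 to 99536195 with 35.9 in SCR and 48.2 in siPiezo2, from 90 and 75 reads. Its ratio was 0.42 (−0.045 to 0.87), at percentile 95.3 of all genes. Klf10 (ENSMUSG00000037465, chromosome 15, transcript 38294660 to 38299326, minus strand), a repressor in TGF-β signalling, had a promoter peak at 38299149 to 38299875 with 58.7 and 73.9, from 154 and 111 reads, and a ratio of 0.33 (−0.037 to 0.69). Klf6 (ENSMUSG00000000078, chromosome 13, transcript 5911481 to 5920393, plus strand), an injury-induced activator, had 3 peaks that summed to 168 in SCR and 166 in siPiezo2, from 435 and 252 reads. Its gene ratio was −0.010 (−0.24 to 0.22). The promoter peak at 5911068 to 5911705 was the strongest, with 79.8 and 76.4, from 213 and 113 reads, and a ratio of −0.063 (−0.41 to 0.27). The other Klf6 peaks had ratios of −0.053 and 0.15, and their windows overlap.

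The glucocorticoid-responsive members differed in that Klf15 held 1 intronic peak higher in siPiezo2, while its other peaks were near equal and Klf9 was slightly lower, within counting error. Klf15 (ENSMUSG00000030087, chromosome 6, transcript 90439558 to 90452220, plus strand), a metabolic regulator of heart and liver, had a peak in intron 1 of 2, at 90440457 to 90440850, with 23.8 in SCR and 42.8 in siPiezo2. The reads were 58 and 68, so the shallower library held more of them, and the ratio was 0.82 (0.29 to 1.35), an increase of 79.8%. This was the only 1 of the 17 peaks that was higher past 1.5-fold, against 3.21% of all peaks. The promoter peak beside it, at 90439155 to 90439570 and with an overlapping window, had 28.9 and 28.2, from 70 and 45 reads, and a ratio of −0.033 (−0.61 to 0.53). The third, in intron 2 at 90448175 to 90448480, had 24.4 and 23.0, with a ratio of −0.086. Summed over its peaks, Klf15 had 77.1 in SCR and 94.0 in siPiezo2, from 186 and 150 reads, and a ratio of 0.28 (−0.038 to 0.60). With separate windows only, which leaves out the middle peak, the Klf15 ratio was −0.058. Klf9 (ENSMUSG00000033863, chromosome 19, transcript 23118590 to 23145498, plus strand), which represses transcription after hormone signals, had 2 assigned peaks, both in intron 1 and both called in SCR only. The peak at 23120145 to 23120389 had 41.3 and 35.3, from 103 and 55 reads, with a ratio of −0.22 (−0.72 to 0.26), and the one at 23129036 to 23129285 had 25.5 in either library, from 61 and 41 reads. Summed, Klf9 had 66.8 in SCR and 60.8 in siPiezo2, with a ratio of −0.13 (−0.51 to 0.24).

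**Figure D2:**
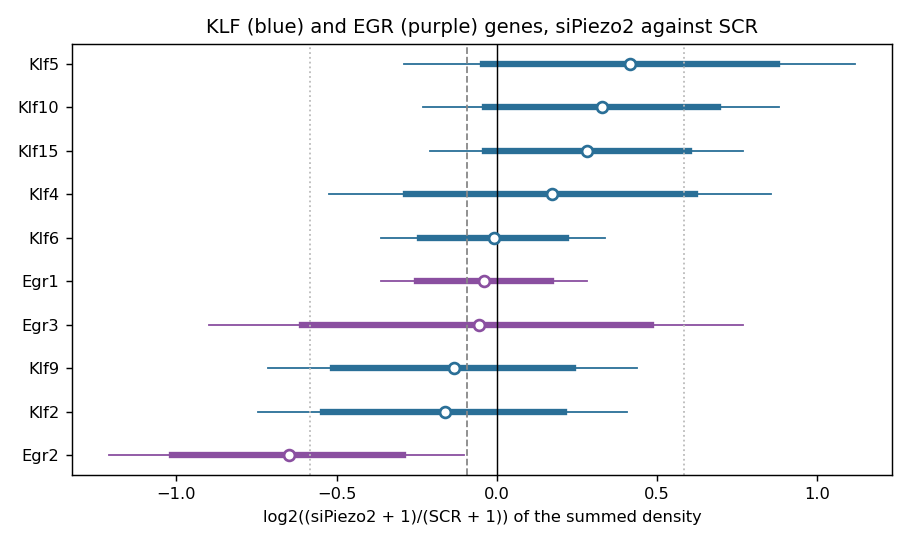
Log2 ratio of siPiezo2 over SCR for the summed density of each gene, with 95% exact binomial intervals and the wider intervals described in the text. The interval of Egr2 alone (−1.02 to −0.29) leaves out 0, with reads shared by its overlapping windows counted in both, and Klf5 (0.42) and Klf10 (0.33) are the highest.

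In order of ratio the genes were Egr2, Klf2, Klf9, Egr3, Egr1, Klf6, Klf4, Klf15, Klf10 and Klf5. The interval of Egr2 overlapped those of its neighbours Klf2, Klf9 and Egr3, and, as computed with shared reads, it lay wholly below those of 6 genes, Klf4, Klf5, Klf6, Klf10, Klf15 and Egr1. Among the other 9, no pair had intervals that failed to overlap. Peaks called in both libraries, at the depth of these genes, scattered 2.34 times as widely in variance as counting alone gives. That factor holds for peaks found in both libraries, whereas both Egr2 peaks were called in SCR only, and it was 4.33 over such peaks of any depth. When the intervals were widened by that factor, the intronic Klf15 peak left out 0 narrowly (0.014 to 1.63), and neither Egr2 peak did (−1.54 to 0.034 at the promoter and −1.35 to 0.25 in the intron). Summed over both Egr2 peaks the wider interval was −1.21 to −0.10, but shared reads count in both windows, and whether it would leave out 0 with them counted once cannot be read from the densities. With the factor of 4.33 the interval of each gene and each peak included 0, Egr2 among them (−1.41 to 0.093). No gene's wider interval lay wholly above that of Egr2.

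Set against the whole table, the 10 genes were spread around the general shift. Their median ratio was −0.025 with 6 of 10 lower, against −0.093 and 62.6% over all genes with a peak. The KLF genes had a median of 0.17 with 3 of 7 lower, and the EGR genes had a median of −0.057 with 3 of 3 lower, although Egr1 or Egr3 or both were above 0 under each of the 4 other scalings. By peak, the median was −0.053 with 10 of 17 lower, against −0.13 and 63.7% of all peaks and −0.12 and 62.6% of peaks with an assigned gene. The KLF peaks had a median of −0.015 with 6 of 12 lower, and the EGR peaks had one of −0.096 with 4 of 5 lower. Relative to the median of all genes, Egr2 stood at −0.56. The 374 genes of the same zinc finger class (zf-C2H2) in the table, to which all 10 belong, had a median of −0.11 with 64.2% lower, and the 976 genes with any transcription factor family had a median of −0.089. Other scalings of the libraries moved the median of all genes from −0.093 to between −0.0076 and 0.046. Under them the median of the 10 genes lay between 0.017 and 0.12, so that its sign depended on the scaling, as did those of Klf6, Klf9, Egr1 and Egr3. For recovered reads at the same total, a scaling that does not depend on density, that median was 0.017, below the 0.030 over all genes. Egr1 was then at −0.21, and Klf10, at 0.27, was below Klf15, at 0.43.

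**Figure D3:**
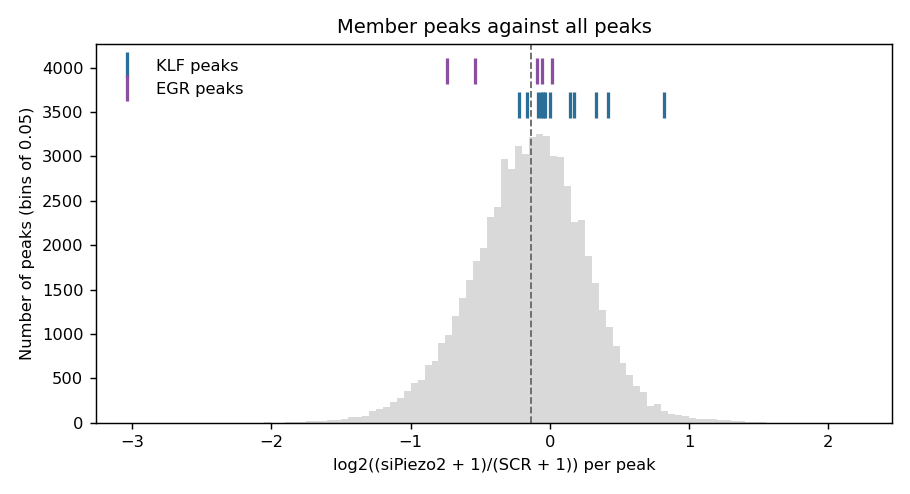
Distribution of the log2 ratio of siPiezo2 over SCR over all 63316 peaks, with the 17 KLF and EGR peaks marked. Most of them lie near the middle, with the Egr2 promoter peak (−0.74) and the intronic Klf15 peak (0.82) outermost.

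The KLF and EGR peaks were strong and close to starts. Because they were chosen by gene symbol, none could be among the 19452 peaks with no assigned gene, nearly all of them intergenic, and the comparison here is with the 43864 peaks that have one. All 17 stood above the median density of the table, and 12 (70.6%, against 29.4% of assigned peaks) were among its densest 25%. Their median density was 41.3 in SCR and 42.8 in siPiezo2, against 26.1 and 23.7 over assigned peaks, while their median width of 305 bp was near that of assigned peaks, 307 bp. Promoters held 8 of the 17 (47.1%, against 21.1% of assigned peaks), and 15 (88.2%, against 39.9%) lay within 2 kb of a start. Peaks within 2 kb had a median ratio of −0.053 among these genes and −0.058 overall. Ratios moved with peak calling: the 8 KLF and EGR peaks called in both libraries had a median of 0.16 with 2 lower, and the 9 called in SCR only had a median of −0.086 with 8 lower. In the whole table, the medians of these groups were 0.0025 and −0.23. None was called in siPiezo2 only, as were 2.16% of all peaks. Both calling and density come from the same reads, and SCR was the deeper library.

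The table assigns a peak to the nearest start, so peaks at these loci can carry a neighbour's name or none. All peaks within 100 kb of a start were therefore counted, 126 in all, of which 109 were not among the 17. The 126 had a median of −0.073 with 74 (58.7%) lower, against −0.13 and 63.7% over all peaks. At Egr2, 12 of 13 peaks (92.3%) were lower, with a median of −0.40, and 10 of the 11 that carry another name or none were lower, with a median of −0.36. The lowest of these, 35.6 kb downstream at 67409097 to 67409472 and assigned to 4930563J15Rik, had 98 reads in SCR and 25 in siPiezo2 and a ratio of −1.31 (−2.01 to −0.67). The peaks at the neighbour Ado, 11.2 and 11.7 kb away, had ratios of −0.54 and −0.40. At Klf2, 8 of 11 peaks were lower with a median of −0.37. One unassigned peak there, 5.58 kb downstream at 73078247 to 73078672, had 50.4 in SCR and 20.5 in siPiezo2, from 124 and 32 reads, with a ratio of −1.26 (−1.87 to −0.69), and it was picked out after its value was seen. At Klf9 and Klf10, most peaks were higher, with medians of 0.11 (3 of 8 lower) and 0.16 (5 of 15 lower). Most of the Klf10 peaks were called in both libraries, a group with 49.7% lower in the whole table. Klf6 had 8 of 16 lower, with a median of 0.055. Its highest was 1.14 (0.64 to 1.65), 57.7 kb upstream, and its lowest was −0.51 (−0.95 to −0.095), an unassigned peak 10.1 kb downstream with 163 and 67 reads beside another at −0.36. The median was −0.26 at Klf4, −0.15 at Klf15, −0.091 at Egr1 and 0.018 at Egr3, and Klf5 had its own peak alone.

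**Figure D4:**
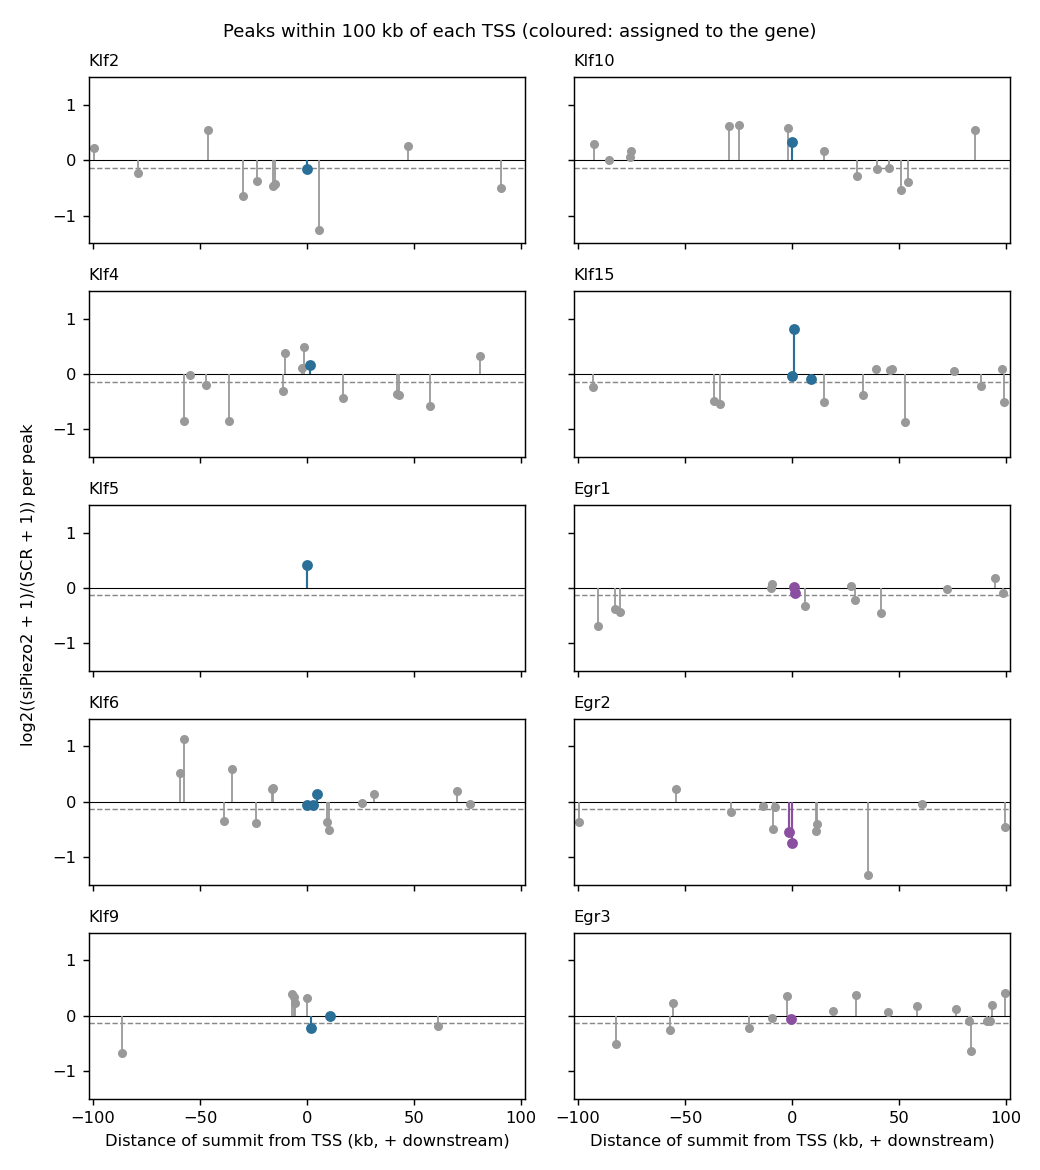
Log2 ratio of siPiezo2 over SCR for every peak within 100 kb of each start, by distance in kb, with the peaks assigned to the gene coloured. Around Egr2, 12 of 13 peaks lie below 0, and around Klf10, 10 of 15 lie above it. Most of the Egr2 peaks were called in SCR only and most of the Klf10 peaks in both libraries. In the whole table, 73.1% and 49.7% of these groups were lower.

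Peaks within 2.5 kb of a start that carried another name or none were looked up, at a distance set after the values were seen, and all 5 of them, at 4 genes, were higher in siPiezo2. Farther out the tally was the reverse: of the 14 unassigned peaks whose nearest start was 1 of the 10 genes, 2.42 to 29.2 kb from that start by the table's own transcripts, 10 were lower, with a median of −0.16, and the Egr3 peak below is among the 4 that were higher. Of all peaks in the table, 63.7% were lower. Calling also differed: 4 of the 5 were called in both libraries, whereas more of the 14 were called in SCR only than in both. The unassigned peak 6.03 kb from Egr1 had 117 in SCR and 92.8 in siPiezo2, with a ratio of −0.33 (−0.64 to −0.039). At the Klf9 start, the peak at 23118041 to 23118657, assigned to Gm56648, had 61.8 in SCR and 77.6 in siPiezo2, from 163 and 116 reads, with a ratio of 0.32 (−0.033 to 0.68). Upstream of Klf4, peaks at 55532863 to 55533138 and 55533693 to 55534131 had ratios of 0.49 (0.13 to 0.85) and 0.11. The peak 1.86 kb upstream of Klf10, assigned to Gm56722, had 55.2 and 82.7, from 145 and 124 reads, with a ratio of 0.58 (0.22 to 0.93). At Egr3, an unassigned peak 2.42 kb upstream had 46.3 and 59.6, from 119 and 91 reads, with a ratio of 0.36 (−0.055 to 0.76). With these peaks added, the ratio was 0.46 for Klf10 (0.20 to 0.71, widened 0.070 to 0.84), 0.28 for Klf4 (0.054 to 0.51, widened −0.067 to 0.63), 0.10 for Klf9 and 0.20 for Egr3, and the median of the 10 genes was 0.15 with 4 lower. Windows share 326 bp at Klf10 and 1088 bp between the added Klf4 peaks, so these intervals count some reads in more than 1 window and are too narrow. Klf9 and Egr3 thus changed sign with the peaks that are counted to them.

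Related genes from fixed lists stood as follows. Of 20 other KLF and SP family genes, 12 had a peak, with 5 lower, 7 higher and a median of 0.030. Klf16 was the only 1 of them past 1.5-fold, with 169 in SCR and 111 in siPiezo2, from 429 and 170 reads, and a ratio of −0.60 (−0.87 to −0.34). Of the EGR relatives Egr4, Wt1, Nab1 and Nab2, 3 had a peak, and Wt1, a zinc finger factor of kidney and epicardium, was lower past 1.5-fold, with 55.6 and 36.2 and a ratio of −0.61 (−1.08 to −0.15). Klf16 and Wt1 lay just past the threshold, 0.585 in log2, and neither was computed under the other scalings. The ERK5 and MEF2 list upstream of Klf2 and Klf4 had 5 of 7 lower and a median of −0.17. The ERK, ELK and SRF list upstream of the EGR genes had 8 of 10 lower and a median of −0.15. Other immediate early genes had a peak in 18 of 20, with 6 lower, 12 higher and a median of 0.047. Egr2 at −0.65 lay below their range of −0.28 to 0.30, but its interval (−1.02 to −0.29) overlapped that of their lowest gene (−0.56 to −0.0065). The 6 glucocorticoid-responsive genes had a median of −0.045. None of the genes in these 4 lists was past 1.5-fold.

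Markers of cell types were read in the same way. Of 10 fibroblast markers, 8 had a peak (Lum and Thy1 did not), 7 were lower, and they summed to 789 in SCR and 687 in siPiezo2. Endothelial markers had a peak in 7 of 8 (Tie1 did not), with sums of 644 and 648, and Cdh5 was higher past 1.5-fold, at 0.70 (0.32 to 1.08). Without Cdh5 the endothelial sums were 597 and 570. Leukocyte markers had a peak in 4 of 7 (Cd68, Adgre1 and Lyz2 did not), with sums of 236 and 225. Cardiomyocyte markers had one in 3 of 7 (Myh6, Nppa, Tnni3 and Pln did not), with sums of 146 and 152. Mural markers had one in 4 of 6 (Kcnj8 and Mcam did not), with 2 lower, 2 higher and sums of 340 and 278, and Rgs5 was lower past 1.5-fold, at −1.16. Without Rgs5 the mural sums were 213 and 222. A peak near a marker gene is not its expression, and the part of cell makeup in the values of the KLF and EGR genes was not tested.

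By the gene ontology terms in the table, 9 of the 10 genes, all but Klf9, were annotated to positive regulation of transcription by RNA polymerase II. Klf2 and Klf4 shared cellular response to laminar fluid shear stress, a term of 6 genes in the table, with ratios of −0.16 and 0.17. Klf9 and Klf10 shared circadian rhythm, a term of 78 genes, with ratios of −0.13 and 0.33. Egr1, Egr2 and Klf15 shared response to insulin, with ratios of −0.039, −0.65 and 0.28. Klf4 and Klf5, at 0.17 and 0.42, shared cellular response to leukemia inhibitory factor, and Egr1 and Egr2 shared learning or memory. These terms were picked from all shared ones after the values were seen.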

How the data were processed

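One table of ATAC-seq peaks served for the 2 libraries, SCR and siPiezo2. The authors deposited for each library a signal, the read density per 1000 bp in a window of 2000 bp around each peak after scaling the libraries to each other on a log ratio against mean density plot. The submitters' processing notes name BWA 0.7.12 and mm10, yet the table's scaffolds carry GRCm39 names. The study's methods name Picard, MACS2, HOMER, Bedtools, featureCounts and an R package for count data for the steps from duplicates to differential peaks. The deposited values are scaled densities, not counts, and which tool made them is not given in the sources used here. The table's log2 ratio, mean log2 density and p-value columns hold the authors' own comparison and were not used.

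Whole reads were recovered from the densities and came out whole within 0.05 reads in 100% of peaks. On simulated densities, 100% of 63316 peaks were recovered. Ratios used a pseudocount of 1, with densities summed over the peaks of a gene. Computations ran in Python 3.11.15 with scipy 1.17.1, pandas 2.3.3 and numpy 2.4.6, and plots in matplotlib 3.10.9. No test was run, since there was 1 library per condition. The wider intervals multiply the counting variance by 2.34, from 17441 peaks called in both libraries whose reads in SCR fell in the range of the KLF and EGR peaks. Ratios depend on the scaling, since siPiezo2 held 0.597 times the reads of SCR. RefSeq promoter sequences are on GRCm38.p6.

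The genes, the lists and the rules were chosen with earlier results of these data known. Named genes are the 10 genes, and from other lists those past 1.5-fold. By rule, peaks shown in full are the strongest, the nearest to the start and those past 1.5-fold. The remaining peaks of Egr1, Egr2, Klf9 and Klf15, the neighbouring peaks and the 2.5 kb alternative were chosen after seeing the data. Overlapping windows share reads, so intervals of their sums are too narrow. Alternatives tried were pseudocount, scalings, unscaled reads, peak subsets, the fold and the assignment of nearby peaks.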

Additional observations from a re-analysis of the deposited data

How the results depend on the processing

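The number of KLF and EGR genes with lower density, 6 of 10, depended on the scaling: it was 2 with median-of-ratios scaling, 3 at the same total over all peaks, 2 with a trimmed mean and 10 for reads without scaling, and it was 1 of 7 over peaks called in both libraries. The 1 gene past 1.5-fold, Egr2, became 0 with median-of-ratios scaling, the same total, a trimmed mean, recovered reads at the same total, separate windows, a fold of 2, or a fold counted from the median of all genes. It became 2 with the strongest peak of each gene, Egr2 lower and Klf15 higher, and 6 for reads without scaling. Over peaks called in both libraries, Egr2 had no peak and the 1 gene past 1.5-fold was Klf15, higher at 0.82. The 2 peaks past 1.5-fold became 11 for reads without scaling, 1 with promoter peaks only, 1 over peaks called in both libraries, and 0 with separate windows or a fold of 2. Without scaling the medians were −0.72 over the genes and −0.67 over the peaks, which is close to the depth difference itself, a median of −0.72 over all peaks. Across the other alternatives Egr2 lay between −0.74 and −0.51 and was past 1.5-fold in 5 of 10. Klf2 stayed below 0, and Klf4, Klf5 and Klf10 stayed above 0, in every scaled alternative. Klf6 changed sign in 4 of 11, Klf9 in 4 of 9, Egr1 in 6 of 10, Egr3 in 5 of 10 and Klf15 in 2 of 11. The causes were not tested. The other 41 summary values stayed within 1.5 times (counts) or within the median 95% interval (medians), and of the ratios of single genes 101 stayed inside the gene's own 95% interval and 13 did not, 10 of them for reads without scaling and 3 for Klf15. A value could stay inside its interval and still change sign. No paired analysis was possible because the labels give no replicate numbers and each condition has 1 library, and for the same reason no library could be left out. With 37 to 288 reads per window, depth limits single peaks.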
